A study of Mus musculus with 8 samples.

Results

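The genes described here belong to the cellular response to low oxygen and to glycolysis, the pathway that breaks glucose down to pyruvate. They were 39 genes chosen by function, namely the subunits of the hypoxia-inducible factors (HIFs), the enzymes that mark HIF proteins for destruction, HIF target genes, glucose and lactate transporters and glycolytic enzymes. All 39 were found among the 43346 gene identifiers counted, and 38 had enough reads to be tested. The exception was Adm, which encodes the vessel-dilating peptide adrenomedullin and lay between 0.157 and 1.67 CPM (read counts scaled to the size of each library, TMM-normalised) in the 8 samples.

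RNA came from notochord-derived cells (NDCs) of Shh-cre;ROSA:YFP mice, in which Cre driven from the Shh locus turns on a yellow fluorescent protein (YFP) in notochord cells and in all of their descendants. Cells were taken at embryonic day 12.5 (E12.5), when the notochord is a continuous rod, and at postnatal day 0 (P0), when its descendants fill the nucleus pulposus of the intervertebral discs. There were 4 samples at each stage, each a pool of embryos or pups from a separate litter, named NDP10.2, NPD3, NPD4 and NPD9.2 at E12.5 and NPD26, NPD27, NPD28 and NPD30 at P0. Both stages carried the same alleles, and neither received a treatment. E12.5 notochords were dissected whole and frozen without sorting, whereas P0 cells were shaken out of opened lumbar and thoracic discs and sorted for YFP. Stage, isolation method and the levels of the spine sampled therefore cannot be told apart in any comparison below.

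In well oxygenated cells, prolyl hydroxylases (the Egln genes) modify the HIF alpha subunits, and the Vhl protein then directs their degradation. When oxygen is scarce the alpha subunits persist, pair with Arnt and bind short DNA elements near genes for glucose uptake, glycolysis, lactate export and vessel growth. The nucleus pulposus has no blood vessels, and its cells are known for relying on glycolysis and for holding HIF-1 alpha protein even in ample oxygen. HIF alpha subunits are controlled largely at the protein level, which RNA counts do not measure.

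Between 4442775 and 8904050 reads per sample fell on genes, so a count of 3 corresponded to 0.337 to 0.675 CPM. The summed CPM of 12 notochord and nucleus pulposus markers lay between 2978 and 8041 in the E12.5 samples and between 8993 and 35950 in the P0 samples, with the highest value in NPD30. Car3 carried most of this rise (695 to 2418 CPM, then 6250 to 24889 CPM), and without it the other 11 markers overlapped between stages, at 2283 to 5682 and 2743 to 11062 CPM. Of the 12, 4 were higher and 2 lower at P0, Shh among the latter (841 ± 456 and 5.94 ± 5.04 CPM, SD, n = 4), and Noto was at or near 0 in every sample. A list of 10 leukocyte genes summed to 64.0 to 128 CPM at E12.5, and to 3146, 3737, 4183 and 365 CPM in NPD26, NPD27, NPD28 and NPD30. Neutrophil markers summed to 8811 CPM in NPD28, against 891 to 1160 CPM in the other P0 samples and at most 18.3 CPM at E12.5. Primitive erythroid globins summed to at least 8120 and at most 32815 CPM in E12.5 samples, and to no more than 7.07 CPM in any P0 sample. The skeletal muscle list (embryonic range 250 to 1294, newborn range 23.1 to 141 CPM) and the sclerotome list (158 to 225 and 12.9 to 27.7 CPM) were also higher at E12.5, with no overlap between stages. Dissociation and stress genes lay between 164 and 451 CPM at E12.5 and between 609 and 1154 CPM at P0. Osteoblast and hypertrophic cartilage markers summed to at least 1077 CPM in every P0 sample and to at most 331 CPM in every E12.5 sample. Definitive erythroid markers lay between 2063 and 17112 CPM at E12.5 and between 437 and 1357 CPM at P0, and the endothelial, neural and macrophage lists are given beside the members they bear on. The samples are mixtures, so fewer cells of a type and less RNA per cell cannot be told apart, and the part these other cells had in the stage differences was not tested.

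Of the 38 members tested, 9 had significantly higher and 2 significantly lower mRNA abundance at P0 than at E12.5 (edgeR quasi-likelihood test, Benjamini-Hochberg adjusted over 15467 genes, adjusted p under 0.05). The 11 changed members were 28.9% of those tested, beside 27.9% of all tested genes. Higher calls made up 23.7% of members and 16.0% of all genes, and lower calls 5.26% of members and 12.0% of all genes. The median log2 fold change was 0.25 over the members and 0.04 over all tested genes. The members that rose were Epas1, Egln3, Hk1, Gpi1, Aldoc, Pfkfb3, Pfkfb4, Eno2 and Ndrg1, and those that fell were Hif3a and Ldhb. They were spread over the pathway, with at least 1 changed member in each of the 8 functional groups. In 9 members every P0 sample lay above every E12.5 sample (15.5% of all genes did so), and in 2 members every P0 sample lay below (14.4% of all genes). A member that did not pass is not thereby shown to be equal at the stages, and the median standard error of such members was 0.29 on the log2 scale. The 9 members whose P0 samples all lay above included the lactate transporter Slc16a1, which did not pass the test, and left out Aldoc, which passed although its stages overlapped.

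**Figure D1:**
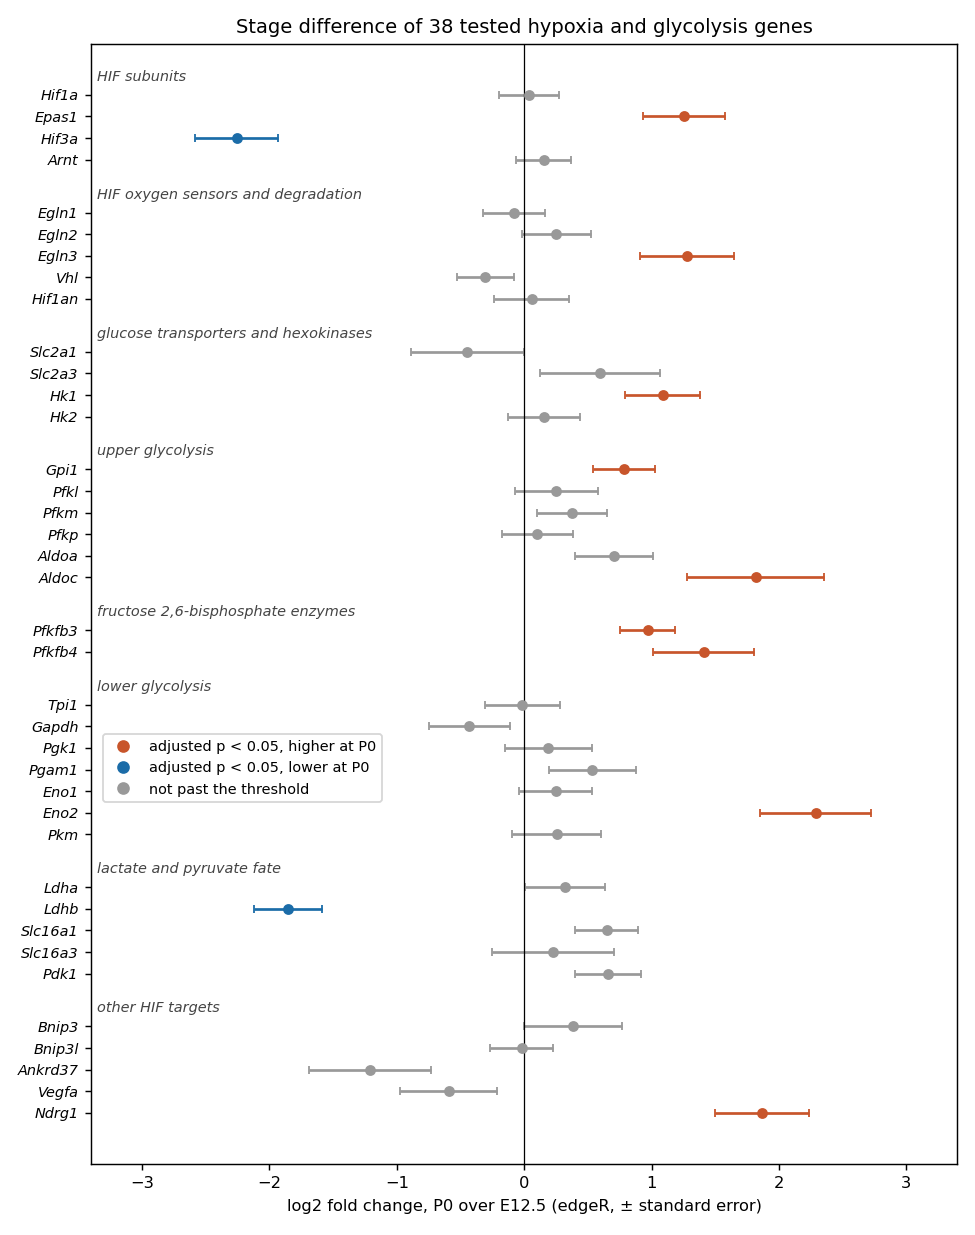
Log2 fold change of P0 over E12.5 with its standard error for the 38 tested members, grouped by function along the vertical axis. Orange points passed the test as higher at P0, blue points as lower and grey points did not pass. Eno2 lay furthest to the right at 2.29 and Hif3a furthest to the left at -2.26, and 27 of the 38 points were grey.

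The proximal promoters of 6 members are shown, namely those of the Ldha and Ldhb pair, the Eno1 and Eno2 pair, Pfkfb3 and Egln3. They are RefSeq sequence of build GRCm38.p6, reading 5′ to 3′ on the gene's own strand over the 250 bases before a transcription start, and for genes with several starts the first listed window is given. Capitals mark the core of the hypoxia response element, searched as ACGTG or GCGTG on both strands, so that its reverse complements CACGT and CACGC also appear in capitals and a palindromic CACGTG counts on each strand. The windows were Ldha at chr7:46845554-46845803 on the plus strand, Ldhb at chr6:142507958-142508207 on the minus strand, Eno1 at chr4:150236458-150236707 on the plus strand, Eno2 at chr6:124769674-124769923 on the minus strand, Pfkfb3 at chr2:11553930-11554179 on the minus strand and Egln3 at chr12:54203875-54204124 on the minus strand.
Ldha: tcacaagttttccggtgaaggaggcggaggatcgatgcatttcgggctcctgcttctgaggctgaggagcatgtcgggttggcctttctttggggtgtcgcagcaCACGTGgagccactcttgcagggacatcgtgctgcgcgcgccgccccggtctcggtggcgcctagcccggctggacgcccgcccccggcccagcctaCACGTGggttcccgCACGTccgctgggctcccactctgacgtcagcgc
Ldhb: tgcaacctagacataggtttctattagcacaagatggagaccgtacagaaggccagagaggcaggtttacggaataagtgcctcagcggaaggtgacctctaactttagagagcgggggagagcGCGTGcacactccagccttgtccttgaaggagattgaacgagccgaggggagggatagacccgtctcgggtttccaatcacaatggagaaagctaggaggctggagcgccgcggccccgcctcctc
Eno1: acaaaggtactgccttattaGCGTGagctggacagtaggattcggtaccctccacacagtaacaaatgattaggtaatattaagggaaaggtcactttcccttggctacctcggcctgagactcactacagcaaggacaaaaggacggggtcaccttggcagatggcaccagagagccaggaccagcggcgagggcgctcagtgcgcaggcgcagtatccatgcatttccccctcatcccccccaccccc
Eno2: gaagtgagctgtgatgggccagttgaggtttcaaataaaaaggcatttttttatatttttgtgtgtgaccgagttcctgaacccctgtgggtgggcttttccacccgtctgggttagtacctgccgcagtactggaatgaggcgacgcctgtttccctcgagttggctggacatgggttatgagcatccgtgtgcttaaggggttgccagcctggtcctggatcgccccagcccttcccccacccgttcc
Pfkfb3: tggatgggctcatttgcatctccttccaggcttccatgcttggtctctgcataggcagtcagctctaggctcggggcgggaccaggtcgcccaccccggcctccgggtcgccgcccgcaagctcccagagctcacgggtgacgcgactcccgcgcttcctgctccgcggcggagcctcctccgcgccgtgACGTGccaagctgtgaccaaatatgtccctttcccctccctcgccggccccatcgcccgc
Egln3: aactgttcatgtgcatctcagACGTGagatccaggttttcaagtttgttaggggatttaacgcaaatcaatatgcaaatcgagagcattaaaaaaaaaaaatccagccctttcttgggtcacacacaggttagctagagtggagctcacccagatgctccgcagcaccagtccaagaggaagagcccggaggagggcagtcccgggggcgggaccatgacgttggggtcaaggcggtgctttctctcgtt

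The Ldha window held 3 runs of capitals, of which 2 were the palindrome, and the Ldhb, Eno1, Pfkfb3 and Egln3 windows held 1 run each. No core lay in the Eno2 stretch, which says only that these letters were not there. Of the 39 members, 35 had an entry in the promoter table, and Epas1, Ndrg1, Slc2a3 and Bnip3l had none. Over windows of 300 bases, from 250 before to 50 after each start, 39 of 50 member windows held a core (78.0%), as did 43.8% of 32851 windows of all genes. Counted by gene, 30 of the 35 members had a core in at least 1 window, against 46.7% of 27025 genes. A core was found in 5 of the 7 members with an entry that were higher at P0 and in 22 of the 25 that did not pass the test. A match of letters is a description and not a bound site.

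Among the HIF subunits, Hif1a mRNA was not distinguishable between stages, Epas1 rose and Hif3a fell. Hif1a encodes the HIF-1 alpha subunit. Its abundance was 80.7, 148, 132 and 97.4 CPM in NDP10.2, NPD3, NPD4 and NPD9.2, and 126, 103, 118 and 122 CPM in NPD26, NPD27, NPD28 and NPD30. All 4 P0 values lay inside the E12.5 range, and the log2 fold change was 0.04 ± 0.24 (SE; adjusted p = 0.929). Arnt, the shared beta partner, lay between 40.7 and 67.1 CPM in all 8 samples, with a log2 fold change of 0.15 ± 0.22.

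Epas1, which encodes the HIF-2 alpha subunit, was measured at 19.3, 22.6, 31.9 and 36.6 CPM at E12.5 and at 45.8, 56.8, 53.6 and 108 CPM at P0, in the sample order above. Every P0 litter exceeded every E12.5 litter, and NPD30 stood well above the other P0 litters. The rise was 2.38-fold (log2 fold change 1.25 ± 0.32, adjusted p = 0.0145). Endothelial cells also express Epas1, and the 7 endothelial markers lay between 82.9 and 165 CPM in E12.5 litters and between 34.1 and 122 CPM in P0 litters, lowest in the same NPD30. Leaving out NDP10.2 or NPD3 ended the Epas1 call, with log2 fold changes of 1.08 and 1.13.

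Hif3a encodes the HIF-3 alpha subunit, some forms of which restrain the other HIFs. Hif3a (ENSMUSG00000004328.11, chr7:17031507-17062427 on the minus strand, Gencode M21 on GRCm38) had 174, 135, 65.3 and 115 CPM at E12.5 and 23.4, 20.6, 22.2 and 35.9 CPM at P0. The stages did not overlap, and the P0 litters were close together. Abundance was 4.78-fold lower at P0 (log2 fold change -2.26 ± 0.33, adjusted p = 0.000812), and the call held whichever single litter was left out. At E12.5 the level per kilobase of exon was 18.2 ± 6.73 CPM for Hif3a (SD, n = 4) and 4.94 ± 1.44 CPM for Epas1. At P0 the order was the opposite, with 3.81 ± 1.04 CPM per kilobase for Hif3a and 11.8 ± 5.04 for Epas1. Hif1a stood at 19.4 ± 5.20 and 19.9 ± 1.72 CPM per kilobase at the respective stages, so its level and that of Hif3a did not differ beyond their spread at E12.5.

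Of the 5 genes that sense oxygen or mark HIF for degradation, only Egln3 passed the test. Egln3, itself a HIF target that encodes the PHD3 prolyl hydroxylase, had 16.3, 16.4, 10.8 and 14.0 CPM at E12.5 and 25.5, 20.6, 28.1 and 64.6 CPM at P0. The stages did not overlap, though NPD30 was again far above the rest. The rise was 2.42-fold (log2 fold change 1.28 ± 0.37, adjusted p = 0.0252). The call was lost without NPD30 and without any of the 4 E12.5 litters, so that 3 of 8 fits kept it, and without NPD30 the log2 fold change was 0.75. Egln1, which encodes the main oxygen sensor PHD2, lay between 75.0 and 88.0 CPM in E12.5 litters and between 54.6 and 107 CPM in P0 litters (log2 fold change -0.08 ± 0.24). Egln2 (0.25 ± 0.27), Vhl (-0.31 ± 0.22) and Hif1an, which encodes the asparaginyl hydroxylase that blocks HIF coactivators (0.06 ± 0.29), also fell short of the threshold on the log2 scale. At both stages Egln1 had the highest level per kilobase of the 3 prolyl hydroxylases, at 22.7 ± 1.70 CPM at E12.5 and 21.5 ± 6.46 at P0. Egln3 stood at 5.39 ± 0.991 CPM per kilobase in the embryonic samples and 13.0 ± 7.57 in the newborn ones, where Egln2 (13.3 ± 2.76) did not differ beyond the spread.

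**Figure D2:**
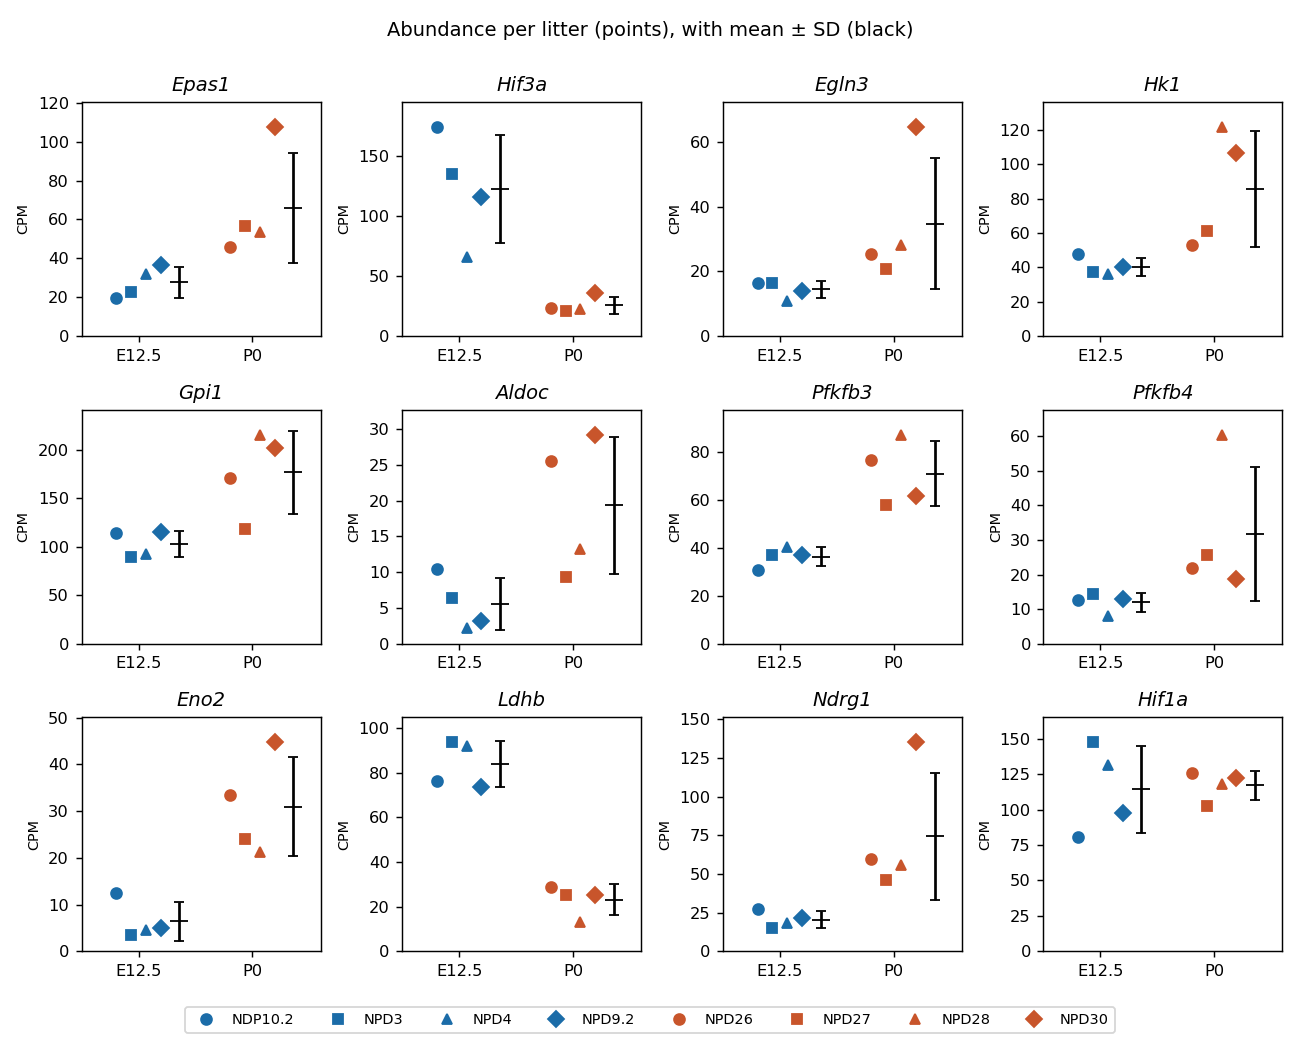
CPM in each of the 4 E12.5 litters (blue) and 4 P0 litters (orange) for the 11 members that passed the test and for Hif1a, each panel with its own linear axis from 0 and the mean ± SD in black. NPD30 was the highest litter for Epas1, Egln3, Aldoc, Eno2 and Ndrg1, and NPD28 for Hk1, Gpi1, Pfkfb3 and Pfkfb4, while Hif1a overlapped fully.

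Glucose entry and its first phosphorylation involve the transporters Slc2a1 (GLUT1) and Slc2a3 (GLUT3) and the hexokinases Hk1 and Hk2, and of these only Hk1 rose. Hk1, the broadly expressed hexokinase, had 47.7, 37.1, 35.9 and 40.3 CPM at E12.5 and 52.7, 61.0, 122 and 106 CPM at P0. The P0 litters fell into a lower and a higher pair, all above E12.5. The increase was 2.13-fold (log2 fold change 1.09 ± 0.30, adjusted p = 0.0183), and the call was lost without NPD3 (1.01) or NPD9.2 (1.05). Hk2, the HIF-inducible hexokinase, lay between 15.6 and 34.3 CPM in all 8 samples (log2 fold change 0.16 ± 0.28). Of the summed hexokinase level per kilobase, Hk1 made up 55.0% ± 9.75 at E12.5 and 68.4% ± 5.76 at P0, a difference that did not pass a two-sided exact permutation test (p = 0.0857, 0.154 after adjustment over 9 shares).

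Slc2a1 had 273, 168, 117 and 230 CPM at E12.5 and 121, 48.3, 166 and 242 CPM at P0. The spread within P0 was wider than the difference between stages (log2 fold change -0.45 ± 0.44, adjusted p = 0.490). Slc2a3 had 92.5, 57.2, 49.9 and 92.5 CPM at E12.5 and 59.8, 44.8, 226 and 109 CPM at P0 (log2 fold change 0.60 ± 0.47, adjusted p = 0.385). Its highest value was in NPD28, the litter with the highest neutrophil sum, and without NPD28 the log2 fold change was -0.02. The share of Slc2a3 in the summed level of both transporters per kilobase was 15.4% at E12.5 and 27.0% at P0 with no overlap between stages (exact permutation p = 0.0286, the smallest that 4 against 4 samples allow; 0.0857 adjusted over the 9 shares). Without NPD28 the share of Slc2a1 fell by 7.31 percentage points, beside 11.6 with all litters.

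In the upper part of glycolysis, Gpi1 and Aldoc rose, whereas the 3 phosphofructokinase genes did not pass the test. Gpi1, which interconverts glucose and fructose phosphates, had 114, 89.6, 92.4 and 115 CPM at E12.5 and 170, 118, 216 and 202 CPM at P0. Its lowest P0 litter, NPD27, was barely above the highest E12.5 litter. The 1.72-fold rise (log2 fold change 0.78 ± 0.24, adjusted p = 0.0330) was the smallest of those called. It fell short under upper quartile scaling (0.63, adjusted p = 0.0674), and leaving out a litter kept the call in 1 of 8 fits, the one without NPD27.

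Aldoc, the aldolase best known from brain, had 10.4, 6.44, 2.18 and 3.20 CPM at E12.5 and 25.6, 9.37, 13.2 and 29.3 CPM at P0. NPD27 lay below the highest E12.5 litter, so the stages overlapped. The rise was 3.52-fold (log2 fold change 1.82 ± 0.54, adjusted p = 0.0272), and 4 of 8 fits that left out a litter kept the call. Without NPD3, NPD9.2, NPD26 or NPD30 the call was lost, with log2 fold changes from 1.51 to 1.87. Aldoa, the ubiquitous aldolase, was far more abundant, with E12.5 values of 307 to 512 CPM and P0 values of 483 to 1011 CPM (log2 fold change 0.70 ± 0.30, adjusted p = 0.109). At P0 Aldoc made up 2.43% of the aldolase level per kilobase and at E12.5 1.09%, and the difference did not pass (exact permutation p = 0.0571, 0.129 adjusted).

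Phosphofructokinase commits sugar to glycolysis and has liver (Pfkl), muscle (Pfkm) and platelet (Pfkp) forms. Their log2 fold changes were 0.25 ± 0.33, 0.38 ± 0.28 and 0.10 ± 0.28. Pfkl made up 45.7% ± 7.82 of their summed level per kilobase at E12.5 and 45.2% ± 5.67 at P0, and no difference between stages was detected for any of the 3 shares (exact permutation p from 0.514 to 0.943, 0.611 to 0.943 adjusted).

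Both genes for regulators of that step rose. Pfkfb3 and Pfkfb4 encode bifunctional enzymes that make and remove fructose 2,6-bisphosphate, the main activator of phosphofructokinase, and both are HIF targets. Pfkfb3 had 30.9, 36.9, 40.3 and 36.9 CPM at E12.5 and 76.7, 58.0, 87.2 and 61.7 CPM at P0. The stages were well apart. The rise was 1.96-fold (log2 fold change 0.97 ± 0.22, adjusted p = 0.00749) and was called whichever litter was left out. Pfkfb4 had 12.7, 14.4, 7.98 and 12.8 CPM at E12.5 and 21.9, 25.5, 60.5 and 18.8 CPM at P0. There was no overlap, with the neutrophil-rich NPD28 far above the rest. Its rise was 2.65-fold (log2 fold change 1.41 ± 0.40, adjusted p = 0.0219). Without NPD28 the log2 fold change was 0.89 and the call was lost, as it was without NDP10.2 (1.39) or NPD9.2 (1.40).

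In the lower part of glycolysis, Eno2 rose and the other 6 genes did not pass the test. Enolase makes phosphoenolpyruvate, and Eno2 encodes the gamma form typical of neurons, whereas Eno1 encodes the widespread alpha form. Eno2 (ENSMUSG00000004267.12, chr6:124760053-124769673 on the minus strand) had 12.5, 3.51, 4.59 and 4.92 CPM at E12.5 and 33.5, 24.1, 21.3 and 44.7 CPM at P0. Every P0 litter was above the highest E12.5 litter. The 4.88-fold rise (log2 fold change 2.29 ± 0.43, adjusted p = 0.00319) was the largest among the members and was called in all 8 fits that left out a litter. The 9 neural markers summed to 2254 CPM in NPD4, where Eno2 was 4.59 CPM, to 304 to 390 CPM in the other E12.5 litters, and to 425 to 1032 CPM at P0.

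Eno1 had 264, 205, 161 and 184 CPM at E12.5 and 258, 146, 224 and 338 CPM at P0. The stages overlapped (log2 fold change 0.25 ± 0.29, adjusted p = 0.565). Eno2 made up 3.29% of the enolase level per kilobase at E12.5 and 12.9% at P0, with 5.15% as the highest E12.5 value and 9.82% as the lowest at P0. The exact permutation p was 0.0286, the smallest possible here, and 0.0857 after adjustment over the 9 shares. Reads from 59.0% of the Eno1 transcript could also come from other genes such as Eno1b and went uncounted, whereas Eno2 shared no such stretch, so the Eno2 share is overstated to an unknown degree. Its size also depended on the gene length used, as given at the end.

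Tpi1 (log2 fold change -0.01 ± 0.29), Pgk1 (0.19 ± 0.34), Pgam1 (0.54 ± 0.34), Gapdh (-0.43 ± 0.32) and Pkm (0.25 ± 0.35) did not pass the test. Tpi1 and Pkm, which encode triose phosphate isomerase and pyruvate kinase, were among the most abundant members, at 229 to 437 and 217 to 540 CPM. Gapdh, usually among the most abundant mRNAs of any cell, was counted at only 8.36 to 23.0 CPM. Its counts are set beside sequence shared with other genes further on.

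Pyruvate becomes lactate through lactate dehydrogenase, built from A subunits (Ldha), which favour lactate formation, and B subunits (Ldhb), which favour the return to pyruvate. Ldhb fell and Ldha did not pass the test. Ldhb (ENSMUSG00000030246.7, chr6:142490249-142507957 on the minus strand) had 76.4, 93.7, 91.9 and 73.5 CPM at E12.5 and 28.9, 25.4, 13.3 and 25.2 CPM at P0. The stages were widely separated, and the lowest litter was NPD28. Abundance was 3.62-fold lower at P0 (log2 fold change -1.86 ± 0.27, adjusted p = 0.000828), a call kept in all 8 fits that left out a litter. The 2 E12.5 litters with the highest primitive erythroid sums, NPD9.2 (32815 CPM) and NDP10.2 (16124 CPM), had the lower Ldhb values of that stage. The same litters also had its highest skeletal muscle sums (1294 and 928.5 CPM). The part of either cell type in the Ldhb levels was not tested.

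Ldha (ENSMUSG00000063229.10, chr7:46841475-46855627 on the plus strand) had 641, 666, 417 and 353 CPM at E12.5 and 657, 436, 630 and 870 CPM at P0. The stages overlapped (log2 fold change 0.32 ± 0.31, adjusted p = 0.483). Ldha accounted for 79.9%, 77.1%, 68.3% and 69.5% of the lactate dehydrogenase level per kilobase in the E12.5 litters and for 91.5%, 89.1%, 95.7% and 94.2% in the P0 litters. The mean share was 73.7% ± 5.70 at E12.5 and 92.6% ± 2.95 at P0 (SD, n = 4), a difference of 18.9 percentage points. No P0 share overlapped with E12.5 (exact permutation p = 0.0286, the smallest possible; 0.0857 adjusted over the 9 shares). The promoter windows printed above differ between these genes, with 3 runs of the core letters for Ldha and 1 for Ldhb. Whether this bears on their levels was not tested.

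**Figure D3:**
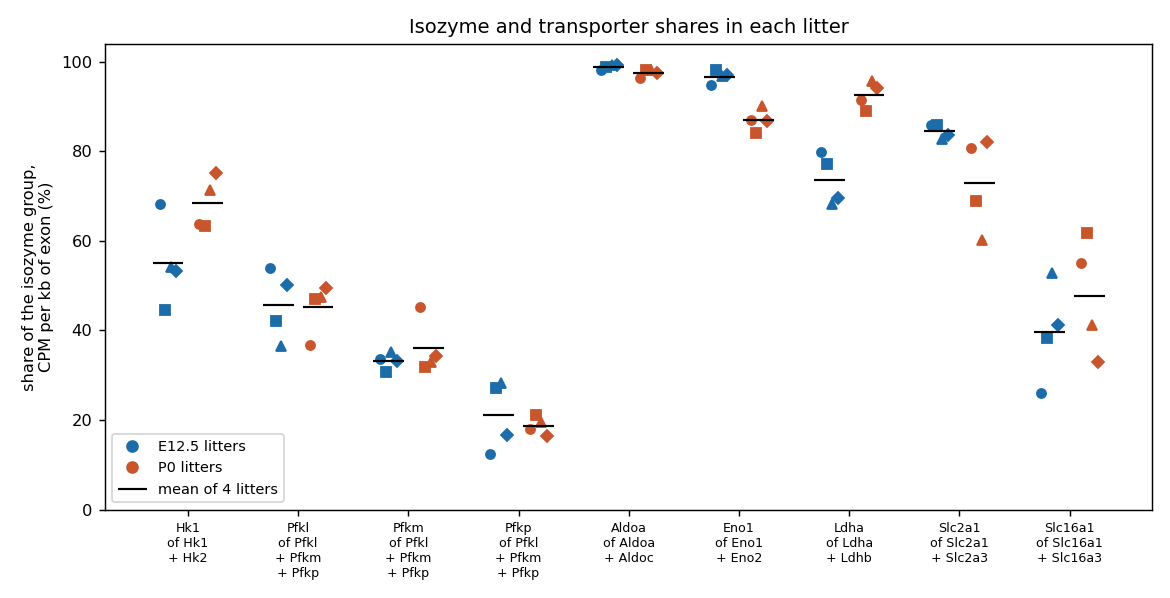
Share of 1 gene in the summed level of its isozyme or transporter group (CPM per kilobase of exon, in percent) for 9 shares, with a point for each E12.5 (blue) and P0 (orange) litter and a line at the mean of 4. The Ldha share was above 89% in every P0 litter and at most 79.9% at E12.5, the Eno1 and Slc2a1 shares were lower in every P0 litter, and the other 6 overlapped.

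Lactate leaves cells through the monocarboxylate transporters Slc16a1 (MCT1) and Slc16a3 (MCT4), and Pdk1 encodes a kinase that holds pyruvate back from the mitochondria. Slc16a1 had 29.0, 27.3, 28.5 and 37.1 CPM at E12.5 and 37.3, 44.0, 67.9 and 41.7 CPM at P0. The stages only just failed to overlap (log2 fold change 0.65 ± 0.25, adjusted p = 0.0744). Pdk1 lay between 37.8 and 63.4 CPM at E12.5 and between 60.3 and 102 CPM at P0 (0.66 ± 0.26, adjusted p = 0.0795). Slc16a3 spanned 30.5 to 99.1 CPM in E12.5 litters and 32.6 to 116 CPM in P0 litters (0.22 ± 0.48). Slc16a1 made up 39.6% of the level of both transporters per kilobase at E12.5 and 47.8% at P0, within the spread (exact permutation p = 0.343, 0.514 adjusted).

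Of the other HIF targets, Ndrg1 rose. Ndrg1, a stress-responsive gene induced by low oxygen, had 27.4, 14.8, 18.0 and 21.4 CPM at E12.5 and 59.9, 46.0, 56.0 and 135 CPM at P0. The stages were clearly apart and NPD30 was the highest litter. The rise was 3.64-fold (log2 fold change 1.87 ± 0.37, adjusted p = 0.00372) and was called in all 8 fits that left out a litter, with a log2 fold change of at least 1.37. Bnip3 and Bnip3l encode receptors for the removal of mitochondria, and their log2 fold changes were 0.38 ± 0.39 and -0.02 ± 0.25. Vegfa, the vessel growth factor, had 113, 113, 70.7 and 74.0 CPM at E12.5 and 35.5, 31.9, 76.4 and 102 CPM at P0. The P0 litters NPD26 and NPD27 were the lowest (-0.59 ± 0.38, adjusted p = 0.275). Ankrd37 lay between 4.67 and 11.8 CPM at E12.5 and between 1.73 and 6.06 CPM at P0 (-1.21 ± 0.48, adjusted p = 0.0819). It passed with DESeq2 (adjusted p = 0.0423) and without NPD30 (log2 fold change -1.61).

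Within P0, NPD30 held the highest value for 21 of the 38 tested members and NPD28 for 11, and NPD27 held the lowest for 24. Within E12.5, NDP10.2 was highest for 18 and NPD3 for 15, and NPD4 was lowest for 19. The notochord gene T was likewise highest in NDP10.2 and NPD30 and lowest in NPD4 and NPD27 of their stages, at 942, 790, 242 and 362 CPM in NDP10.2, NPD3, NPD4 and NPD9.2 and at 1007, 574, 1372 and 2323 CPM in NPD26, NPD27, NPD28 and NPD30. Between stages T did not pass the test (1.18 ± 0.52 on the log2 scale, adjusted p = 0.117), and the part of notochordal content in the members' levels was not tested.

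Per kilobase of exon, the order of the members was alike at the top of both stages. At E12.5 Ldha (157 ± 47.6 CPM per kilobase), Aldoa (143 ± 33.3) and Tpi1 (111 ± 29.2) led, followed by Pkm (66.7 ± 21.5), Slc2a1 (56.1 ± 19.6) and Ldhb (53.4 ± 6.60). At P0 Aldoa (233 ± 79.1), Ldha (196 ± 53.6), Tpi1 (110 ± 35.0) and Pkm (79.4 ± 31.5) were highest. The neighbours Ldha and Aldoa lay within 1 SD of each other at both stages. Ldhb moved from position 6 to position 14 of 39 and Hif3a from 14 to 35, whereas Ndrg1 moved from 35 to 21.

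These levels depend on whether reads could be placed. Reads matching several places in the genome were not counted, and they made up 26.3% to 33.7% of the alignments tallied in each sample. Of the possible 100-base windows of each member's transcript, 78.1% for Gapdh, 67.0% for Pgk1, 59.0% for Eno1, 39.7% for Pgam1 and 33.5% for Bnip3 also occurred in a transcript of another gene. The Gapdh windows were shared with 86 other annotated genes, most of them pseudogenes. The counted levels of these 5 genes understate them to an unknown degree, and none of the 5 passed the test. Of the 11 members that did, 7 shared no window and the others were Ndrg1 (9.82%), Ldhb (8.80%), Gpi1 (7.40%) and Hk1 (1.39%). For Pfkp the shared 16.0% lay in Pitrm1, an overlapping gene. The genes sharing windows with Ndrg1 (Gm17035 and Gm2895) and Hk1 (Hk1os) likewise overlapped them, on the opposite strand. The same held for Gm26762, which shared windows with Gpi1, and Gm45507, which shared windows with Bnip3. Such windows bear on reads over overlapping genes rather than on reads with several places. Their part in the stage differences was not tested. Reads over overlapping genes were assigned to neither gene. They made up 10.6% to 17.5% of the alignments tallied in E12.5 samples and 7.07% to 10.5% in P0 samples.

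**Figure D4:**
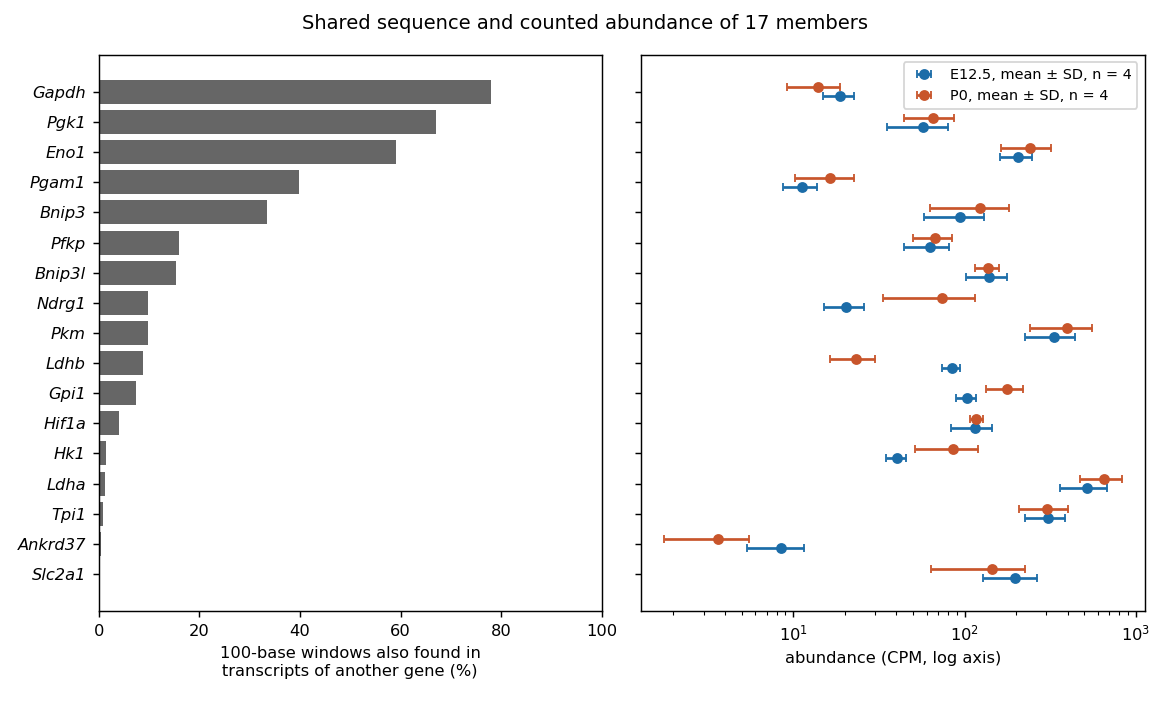
Left, percent of 100-base windows of the transcript that also occur in a transcript of another gene, for the 17 members with any such window. Right, counted abundance (CPM, log axis) as mean ± SD of 4 litters at each stage. Gapdh, at 78.1% shared, was counted at about the level of Pgam1, far below Tpi1 and Ldha, which share almost nothing.

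Further genes of these pathways were examined as lists. Of 34 tested further HIF targets, 9 were higher (26.5%, beside 16.0% of all tested genes) and 1 was lower at P0 (2.94%, beside 12.0%). The called share was 29.4% beside 27.9% of all tested genes, and the median log2 fold change was 0.10 beside 0.04. Car9, the HIF-induced carbonic anhydrase, had 6.84, 0.781, 1.33 and 1.48 CPM at E12.5 and 13.8, 9.23, 18.0 and 21.8 CPM at P0 (log2 fold change 2.62 ± 0.63, adjusted p = 0.0101). Ppp1r3c, which promotes glycogen storage, was at most 64.6 CPM at E12.5 and was 210, 84.9, 229 and 426 CPM in the P0 litters (2.77 ± 0.60, adjusted p = 0.00717). Neither gene had overlapping stages. Hmox1, the heme-degrading enzyme abundant in macrophages, was high in NPD26 (205 CPM), NPD27 (207) and NPD28 (91.0) and was 3.18 CPM in NPD30 (3.78 ± 0.98, adjusted p = 0.0168), a call lost without NPD3 (3.55) or NPD4 (3.54). The macrophage list followed it, at 5386, 5941, 2052 and 199 CPM in those litters. The lower gene was Rcor2 (-1.29 ± 0.26, adjusted p = 0.00417), a corepressor subunit.

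Of 22 further HIF regulators, 1 was higher (4.55%, beside 16.0% of all tested genes) and 4 were lower (18.2%, beside 12.0%). Together 22.7% were called, beside 27.9% of all tested genes, with a median of -0.14. Cited2, which competes with HIF for its coactivators, had 82.8, 44.1, 112 and 75.2 CPM at E12.5 and 114, 136, 170 and 286 CPM at P0 (1.17 ± 0.35, adjusted p = 0.0301). The Cited2 call was lost without NDP10.2, NPD3, NPD9.2 or NPD30, with log2 fold changes of 1.15, 0.93, 1.11 and 0.79. Arnt2, an alternative beta partner with a neural bias, was 2.95-fold lower (-1.56 ± 0.36, adjusted p = 0.00818). Asb4, an oxygen-dependent ubiquitin ligase adaptor of embryonic tissues, had at least 32.9 CPM in each E12.5 litter and at most 4.87 CPM in each P0 litter (-4.22 ± 0.59, adjusted p = 0.000812). Wsb1, a ubiquitin ligase subunit, was 2.26-fold lower (adjusted p = 0.0197).

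Of 18 tested further isozymes and transporters, 3 were higher (16.7%, beside 16.0% of all tested genes) and 3 lower (16.7%, beside 12.0%). Together 33.3% were called, beside 27.9%, with a median of -0.03. Hk3, the hexokinase of myeloid cells, was at most 2.95 CPM at E12.5 and was 22.3, 49.5, 73.9 and 3.03 CPM at P0. Its lowest P0 litter, NPD30, also had the lowest leukocyte sum of that stage (365 CPM). The neutrophil sum of NPD30 (1160 CPM) was nevertheless above those of NPD26 (891 CPM) and NPD27 (1001 CPM). Slc2a6, a transporter of leukocytes, peaked in NPD28 at 27.1 CPM (2.52 ± 0.64, adjusted p = 0.0130). The lower genes were Slc2a4, the insulin-responsive transporter, Eno3, the muscle enolase, and Bpgm, which makes the 2,3-bisphosphoglycerate of red cells. Their log2 fold changes were -1.44 ± 0.34, -1.13 ± 0.30 and -1.42 ± 0.35 (adjusted p from 0.00898 to 0.0161), and the sums of the muscle and primitive erythroid lists were also lower, as given above.

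Beyond glycolysis, 5 of 26 genes for pyruvate entry and the citrate cycle rose, which is 19.2% beside 16.0% of all tested genes, and the median log2 fold change was 0.36. No gene of that list was called lower, beside 12.0% of all tested genes. Pdha1, a subunit of pyruvate dehydrogenase, had at most 38.6 CPM in E12.5 litters and 50.8 to 75.6 CPM in P0 litters (1.13 ± 0.25, adjusted p = 0.00659). Idh3a and Ogdh, citrate cycle dehydrogenase subunits, rose 2.18-fold and 2.04-fold (adjusted p = 0.00833 and 0.00559). All 3 had no overlap between stages. For Pdha1 the P0 values were 75.6, 50.8, 66.4 and 73.4 CPM in NPD26, NPD27, NPD28 and NPD30. The part of leukocytes in these rises was not tested. In the pentose phosphate pathway 2 of 7 genes rose (28.6%, beside 16.0%), and no gene was called lower (beside 12.0%). G6pdx, the entry enzyme, was 97.7, 83.6 and 140 CPM in NPD26, NPD27 and NPD28 and 40.0 CPM in NPD30, against 23.1 to 41.3 CPM at E12.5 (1.36 ± 0.36, adjusted p = 0.0157), a call lost without NDP10.2 (1.16). Tkt, a transketolase, was highest in NPD28 at 327 CPM (1.14 ± 0.29, adjusted p = 0.0125).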

How the data were processed

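Total RNA libraries (TotalScript kit, single-end reads) of 4 E12.5 and 4 P0 samples were analysed. Per the paper's methods, the authors aligned reads to GRCm38.p3 with STAR (version 2.4.0j in the submitters' processing notes) and counted them per Gencode M4 gene with htseq-count, and the deposited files hold raw counts, 1 file per sample. Whether counting used strand is not given in the sources used here. The rows of htseq-count that name no gene (unassigned, ambiguous and multiply placed reads) were kept out of library sizes. They held the larger part of the tally: only 22.6% to 34.8% of the alignments tallied in a sample fell on genes. Of 43346 gene identifiers, 42462 matched Gencode M21, which gave symbols, coordinates and exon lengths.

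Counts were fitted over all 8 samples with edgeR 4.0.16 in R 4.3.3 (TMM scaling, filterByExpr with a minimum count of 10 and a minimum total of 15, robust quasi-likelihood F-test), without covariates. P-values were adjusted by Benjamini-Hochberg over 15467 genes, with a call at 0.05. Values per sample are TMM-scaled CPM, those per kilobase were divided by the union of exons, and errors of log2 fold changes are standard errors. Isozyme shares were compared with two-sided exact permutation tests. Alternatives used DESeq2 1.42.0, limma 3.58.1, other scalings and filters, equal depth, and leaving out each litter. The fit was tested on simulated data. It missed most of the smallest changes put in there. Far fewer genes were changed in that simulation than were called here, so its outcome cannot be carried over to the members. Shared sequence was searched among Gencode M21 transcripts, since the genome sequence was not used here. Counts cover reads, not independent molecules.

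The members, gene lists and tests were chosen with earlier results of these data known. All 39 members are named, and of each further list up to 3 higher and 3 lower genes past the threshold with a mean log2 CPM of at least 2, by size of change. T and the marker lists are given where they bear on a member.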

Additional observations from a re-analysis of the deposited data

How the results depend on the processing

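The members called higher at P0 numbered 9, and 4 to 9 when a litter was left out (5 without NDP10.2, 4 without NPD3 and 4 without NPD9.2), while 7 to 9 were called under the other settings. Those called lower numbered 2 to 3. Of all tested genes, 27.9% were called in either direction in the main fit. Without NDP10.2 that share was 24.4%, without NPD3 22.9% and without NPD9.2 22.9%. With a litter left out it ranged from 22.6% (without NPD26) to 28.1% (without NPD30). It was 15.2% with no filter and 33.1% with DESeq2. In the other settings and with each litter left out, the direction of all 11 called members stayed the same. Among members that did not pass, the log2 fold change changed sign for Hif1a (-0.11), Arnt (-0.0044), Hif1an (-0.099), Hk2 (-0.0067) and Pfkp (-0.049) under upper quartile scaling, which moved the median of all genes by -0.145 on the log2 scale, for Tpi1 (0.0035) with at least 10 counts in every sample and for Bnip3l (0.0048) with limma-voom. With a litter left out it ranged across 0 for Hif1a (-0.14 to 0.15), Egln1 (-0.32 to 0.065), Hif1an (-0.11 to 0.22), Slc2a3 (-0.024 to 0.87), Hk2 (-0.042 to 0.31), Pfkl (-0.083 to 0.42), Pfkp (-0.087 to 0.22), Tpi1 (-0.28 to 0.11), Pgk1 (-0.059 to 0.39), Slc16a3 (-0.10 to 0.51) and Bnip3l (-0.17 to 0.11). The Pfkl share changed by -0.53 percentage points, by 0.48 without length correction and by 0.24 with the longest coding transcript as length, an alternative added after seeing the data; the cause was not tested. With a litter left out it ranged from -3.57 to 2.26 points and the Pfkm share from -0.12 to 4.33. The Ldha share rose by 10.9 rather than 18.9 points without length correction. With 3 against 4 litters no exact test can go below 0.0571. No paired analysis was possible because each sample came from a separate litter, taken at either E12.5 or P0.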
